A study of Bos taurus with 14 samples.

Results

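The genes described here are the plasma membrane and lysosomal carriers of amino acids and related compounds in 7 solute carrier (SLC) families. All symbols that the expression files list for SLC1A, SLC3A, SLC6A, SLC7A, SLC36A, SLC38A and SLC43A followed by a number were taken, and entries whose symbol carries a numbered suffix were left out. This gave 57 genes among 26767 listed features: 7 of SLC1A, 2 of SLC3A, 19 of SLC6A, 12 of SLC7A, 4 of SLC36A, 11 of SLC38A and 2 of SLC43A. The study derived stable embryonic stem cells from cattle (Bos taurus) blastocysts and profiled 14 libraries by RNA sequencing. Control samples were sequenced as 2 libraries of each kind: pools of 10 whole blastocysts produced in vivo, and skin fibroblast cultures, each labelled A and B. The bovine embryonic stem cells (bESC) came from lines A and B, derived from blastocysts and grown on mouse embryonic fibroblast feeders in CTFR medium. This is a custom base medium without growth factors to which FGF2 and the WNT pathway inhibitor IWR1 were added. Libraries of line A come from passages (P) 10, 13, 23, 35 and 45, those of line B from passages 10, 12, 24, 35 and 46. The 5 libraries of a line are serial passages of 1 culture and not independent derivations, and a blastocyst pool holds trophectoderm and hypoblast beside the epiblast. No gene was edited in any group, and the labels give no age or breed for the animals.

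Cells take up amino acids through carriers that differ in what they move and in what drives them. SLC1A carriers use the sodium gradient to import glutamate and aspartate or to exchange small neutral amino acids, SLC38A carriers import glutamine and other neutral amino acids with sodium, and SLC36A carriers work with protons, several of them at the lysosome. The light chains of SLC7A move large neutral amino acids or exchange cationic for neutral ones or cystine for glutamate. They pair with a glycoprotein heavy chain of SLC3A that brings them to the cell surface. Cationic carriers of SLC7A such as SLC7A1 and SLC7A3 work alone. Amino acids from outside the cell support the growth of preimplantation embryos and of cultured pluripotent cells, and when they run short the transcription factor ATF4 switches on carriers and synthesis enzymes.

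The deposited values are RPKM (reads scaled to transcript length and to the total reads of the library), so levels can be compared between genes, but the number of reads behind them is unknown. The files fall into a set of 6 libraries (blastocysts, fibroblasts and P10 bESC) and a set of 8 (the later passages), which list partly different features. SLC7A5, SLC38A4 and SLC6A9 were used in the later libraries only and SLC6A8 in the other 6 only, which left 53 of the 57 genes for all 14. A pair of features held 65.8% and 64.0% of the summed RPKM in the blastocyst pools and between 2.08% and 3.36% elsewhere. Every library was therefore divided by the median of its ratios over 9254 features above 0 in all 14, and values below are these scaled RPKM. With this scaling the median feature changed by 0 between P10 bESC and fibroblasts, by 0.09 between P10 bESC and blastocysts and by -0.05 between blastocysts and fibroblasts on the log2 scale, against 0.23, 1.43 and -1.15 in the RPKM as deposited. Since the files give GAPDH as 0 throughout (14 of 14 libraries), a 0 may be a failed estimate, and such genes are called listed at 0. Of the later libraries, line A at P13 and P35 stood farthest from the others on the leading principal component (scores 31.3 and 23.6, with the other 6 between -17.5 and 6.5).

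Epiblast, fibroblast and trophectoderm markers were highest in the samples labelled as such or, for epiblast, in the stem cells. The 5 epiblast markers usable in all libraries summed to 330 to 425 in the 10 bESC libraries, 176 to 205 in blastocysts and 0.507 to 2.15 in fibroblasts. The 10 fibroblast markers summed to 7140 and 8090 in fibroblasts, 8.22 to 9.72 in blastocysts, 89.8 and 197 in P10 bESC of lines A and B, and 185 to 272 at later passages. Trophectoderm markers (7 genes) summed to 2940 and 2100 in the blastocyst pools, 134 to 162 in P10 bESC and 181 to 674 later. KRT8 and KRT18 supplied most of the bESC value, and CDX2 was listed at 0 in all 10 bESC libraries. Hypoblast markers (6 genes) summed to 90.4 and 118 in blastocysts, 50.2 and 66.1 in fibroblasts, where PDGFRA supplied nearly all of it, and 1.28 to 3.85 in bESC. Neural markers (4 genes, mainly TUBB3 and NES) summed to 114 to 157 in bESC, 12.1 to 18.8 in blastocysts and 68.7 to 140 in fibroblasts. All 4 were called higher at P10 than in blastocysts, and DCX, SOX1 and TUBB3 higher than in fibroblasts. Keratinocyte markers (4 genes) summed to 54.6 to 56.4 in blastocysts and at most 5.86 elsewhere. In such bulk samples, fewer cells of a type and less RNA per cell cannot be told apart, and the part that feeder cells or the other embryo lineages had in the levels below was not tested.

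The most abundant carriers overlapped between sample types. By mean, SLC38A2 ranked 1 or 2 in each, while SLC1A1 ranked 1 in blastocysts only and SLC7A3 ranked 3 in the stem cells only. SLC6A8, which ranked 3 in blastocysts and 5 at P10, is not among the 53 genes used for the shares. Blastocysts carried mainly the glutamate carrier SLC1A1, which held 61.6% and 63.9% of the summed level of the 53 genes, beside 8.32% and 11.1% for SLC38A2. Fibroblasts carried mainly SLC38A2, SLC3A2 and SLC1A5, with shares of 29.6% to 34.2%, 19.4% to 28.5% and 13.1% to 14.8%. The stem cells combined SLC38A2 (17.6% to 18.5% at P10 and 11.5% to 15.9% later), SLC1A5 (9.38% to 14.1%), the arginine and lysine carrier SLC7A3 (7.59% to 13.6%) and, at a smaller share than in fibroblasts, SLC3A2 (7.28% to 11.2%). In the other 4 libraries SLC7A3 had a share of at most 0.0188%. The 5 most abundant members made up 84.5% and 87.5% of the sum in blastocysts, 82.3% and 78.2% in fibroblasts and 48.3% to 62.3% in bESC.

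**Figure D1:**
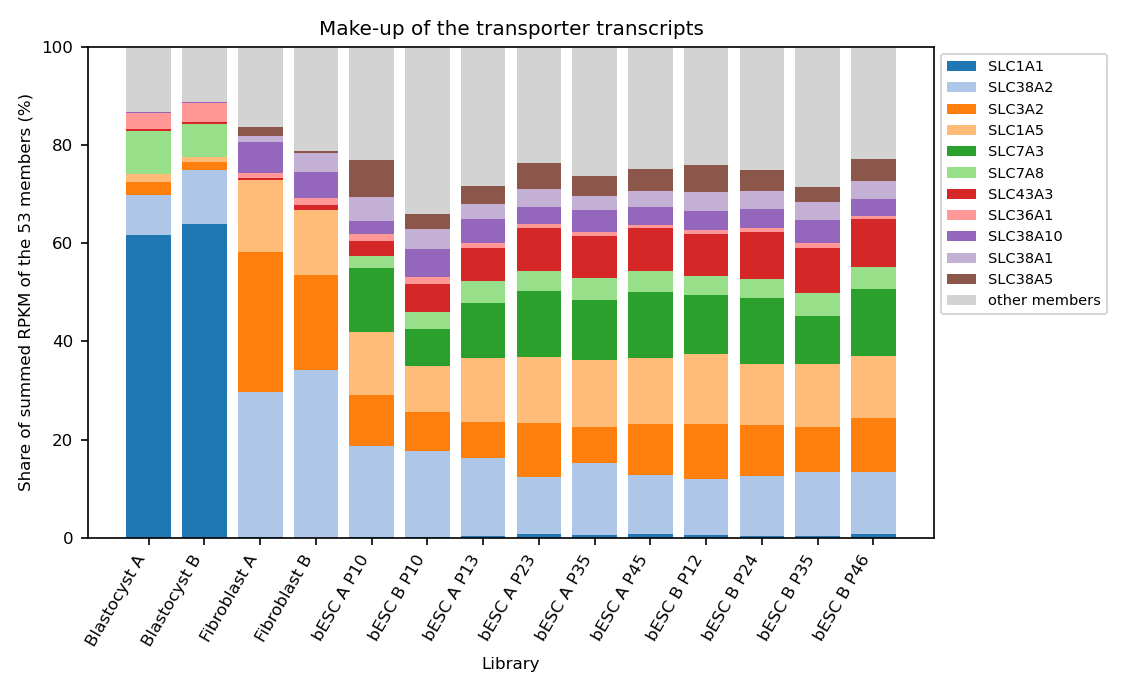
Stacked bars give the share of 11 named genes in the summed RPKM of the 53 amino acid transporter genes used in all 14 libraries (percent, from 0 to 100), with the rest in grey. SLC1A1 fills 61.6% and 63.9% of the blastocyst bars, and SLC7A3 fills 7.59% to 13.6% of the 10 bESC bars.

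Fewer members were listed at 0 in stem cells than in the control samples, and more features of all kinds reached 1 RPKM as deposited there. Of the 54 genes used in the 6-library set, 15 were listed at 0 in both blastocyst pools, 17 in both fibroblast cultures and 2 in both P10 libraries. At least 1 scaled RPKM in both libraries was reached by 20 genes in blastocysts, 22 in fibroblasts and 25 in P10 bESC, and by 28 of 56 genes in all 8 later libraries. Over all features, 7558 and 7447 reached 1 RPKM as deposited in blastocysts, 10071 and 10023 in fibroblasts, and 10708 and 11205 in P10 bESC. The later libraries had 12152 to 12563, from a partly different list. Features listed at 0 were not counted, so the member counts are not shown to be particular to these genes. In all, 18 members stayed under 1 in every library, with a highest value of 0.616 for the serotonin carrier SLC6A4 in blastocyst pool B. The relative depth within the set, estimated from the smallest RPKM steps, was 1.25 and 1.56 in the P10 libraries and 1.00 to 1.05 in the other 4, and its part in these counts was not tested. The 18 genes include 11 of the 19 SLC6A genes, among them the dopamine carrier SLC6A3 and the glycine carriers SLC6A5 and SLC6A9, and also SLC1A2, SLC1A7, SLC7A9, SLC7A10, SLC36A2, SLC36A3 and SLC38A8.

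**Figure D2:**
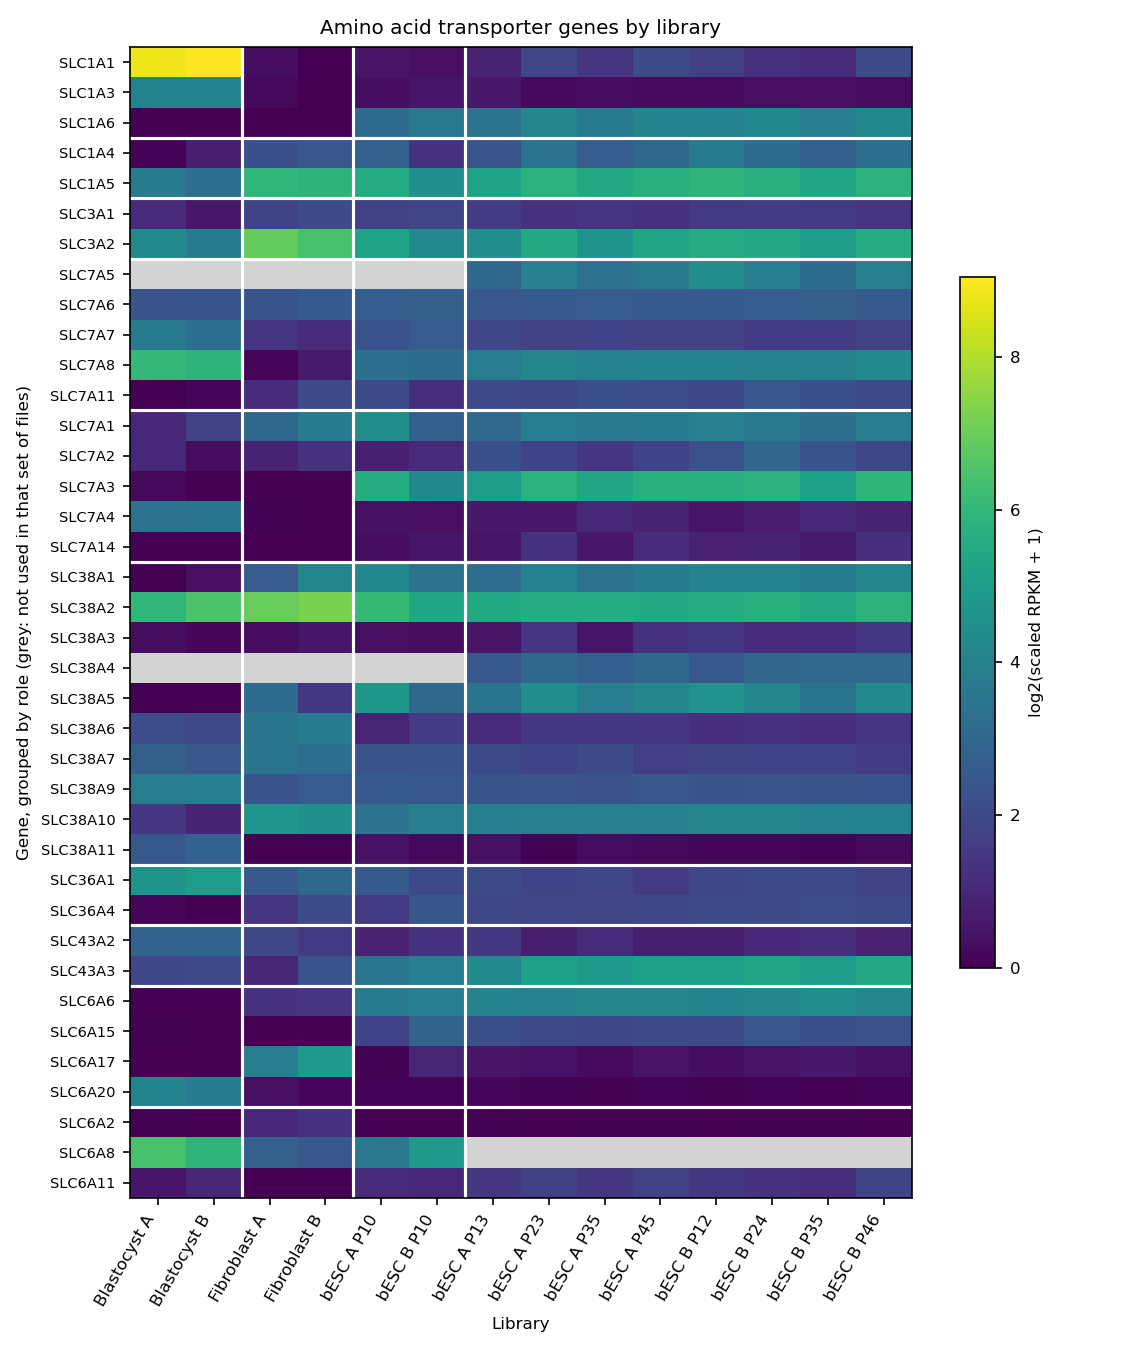
Colour gives log2(scaled RPKM + 1) of 38 members that reached 1 scaled RPKM in some library (rows, grouped by role) in the 14 libraries (columns, grouped by sample type), and grey marks genes not used in that set of files. SLC1A1 is brightest in the blastocyst pools (454 and 528 scaled RPKM), and SLC7A3, SLC1A6, SLC6A6 and SLC43A3 stand out in the bESC columns.

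Between P10 bESC and fibroblasts, the cationic carrier SLC7A3, the acidic carrier SLC1A6, the light chains SLC7A8 and SLC7A7 and the taurine carrier SLC6A6 were higher in the stem cells, and 4 SLC38A carriers and the heavy chain SLC3A2 were lower. The fit was limma on log2(scaled RPKM + 1) over all features that reached 1 in at least 2 of the 6 libraries, which kept 35 of the 54 members, with Benjamini-Hochberg adjustment over all features and a call at an adjusted p below 0.05. In the stem cells 10 members were higher and 7 lower, and 18 were not called. Of all 12028 features, 25.1% were called higher and 25.3% lower. The members' shares lie near that background, with 10 of 35 higher and 7 of 35 lower, and their median change was 0.22 against 0 for all features. The 17 calls also held with the RPKM as deposited and after quantile normalization. Without line A or line B at P10, fewer members were called higher, as was a smaller share of all features. SLC7A3, SLC1A6, SLC6A15 and SLC6A11 were then not tested, since they reached 1 in the remaining P10 library only. Their entry to the fit thus rested on the group where they were high. Without fibroblast culture A or B, fewer members and a smaller share of all features were called lower. SLC6A17 and SLC6A2 were then not tested, since their entry rested on the fibroblast libraries. With 2 libraries a group, p-values reflect the scatter of these libraries alone, which may be technical.

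Between P10 bESC and blastocysts, 14 members were higher and 12 lower, and 9 were not called. The background was 34.3% of features higher and 31% lower, and the median change was 0.34 for the 35 members and 0.09 for all features. The comparison uses the same P10 libraries as the one with fibroblasts. Of these calls, 11 higher and 7 lower held in all 3 scalings. As deposited, 21 members were called higher and 7 lower, beside 73% and 7.33% of all features. Without blastocyst pool A or B, fewer members and a smaller share of all features were called lower. SLC1A1, SLC1A3, SLC7A4, SLC6A20 and SLC38A11 were then not tested, since they reached 1 in the remaining pool only. Their entry to the fit thus rested on the blastocysts, where they were high. Without line A or line B at P10, fewer members and a smaller share of all features were called higher. Blastocysts differed from fibroblasts in 13 higher and 16 lower members, beside 32.3% and 35.4% of all features, with medians of -0.12 and -0.05. Of these calls, 8 higher and 12 lower held in all 3 scalings. Leaving out either blastocyst pool or either fibroblast culture lowered the number of members and the share of all features called, in both directions.

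**Figure D3:**
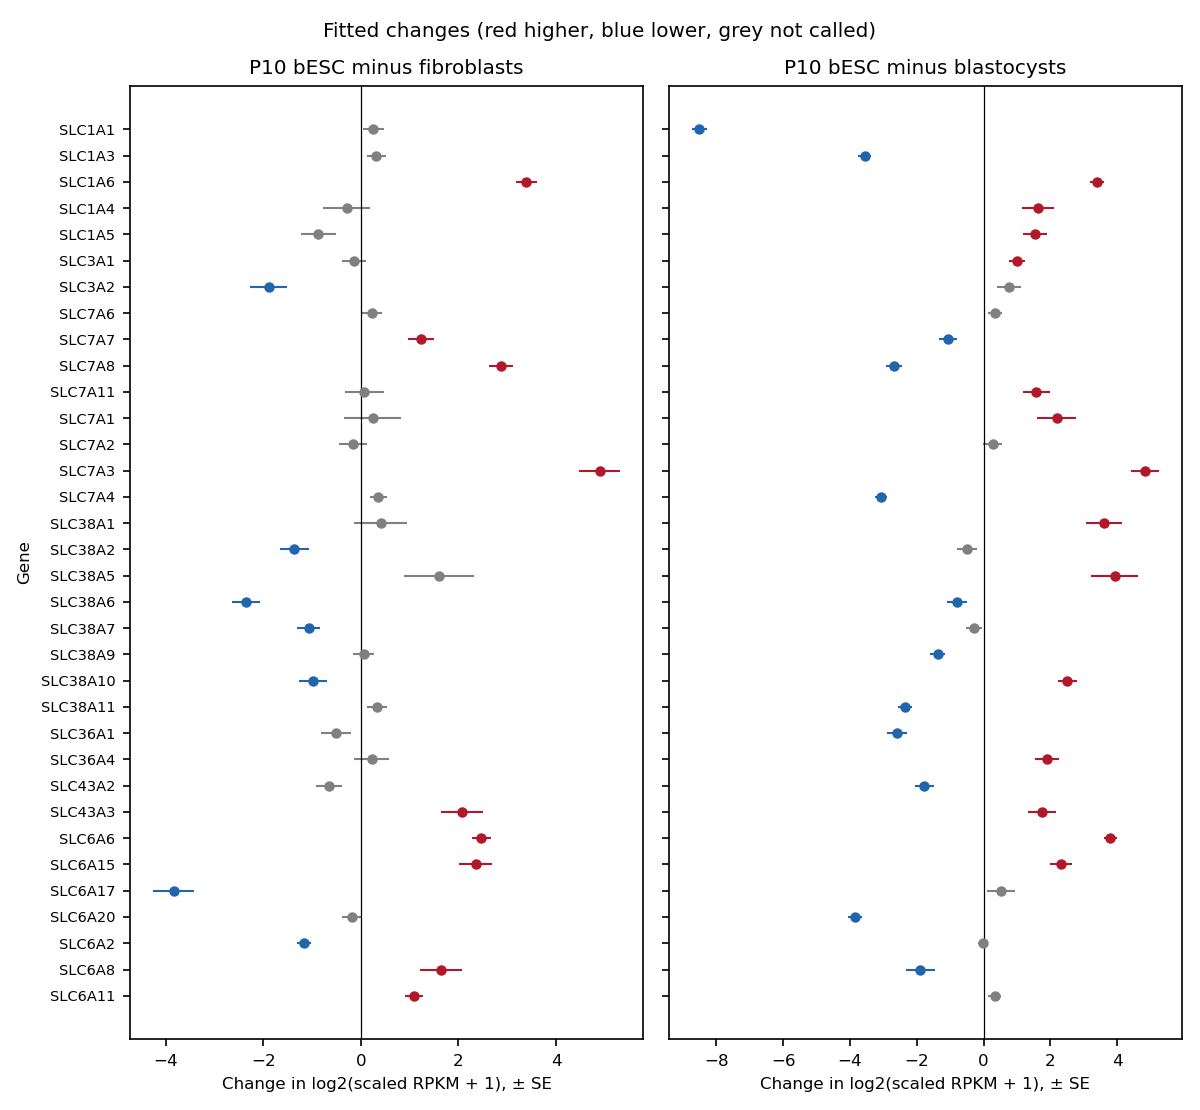
Points give the fitted change of 34 of the tested members in log2(scaled RPKM + 1) between P10 bESC and fibroblasts (left) and between P10 bESC and blastocysts (right), with bars of 1 standard error (2 libraries a group). In the left panel 9 called members lie to the right and 7 to the left of 0, in the right panel 14 and 12, and SLC1A1 at -8.51 is farthest from 0.

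Acidic amino acid carriers of SLC1A separated the blastocyst from the stem cells in both directions. SLC1A1, the epithelial glutamate and aspartate carrier EAAC1, was 454 and 528 in the blastocyst pools, 0.390 and 0.303 in P10 bESC of lines A and B, and 0.259 and 0 in fibroblasts. The blastocyst values lay far above the other 4, and the change from blastocysts to P10 bESC was -8.51 ± 0.22 (SE, adjusted p = 8.78e-06). At later passages SLC1A1 was between 0.863 and 3.27 with a median of 1.93. SLC1A3, the glial glutamate carrier, was 14.8 in both blastocyst pools and at most 0.538 in any other library (change -3.56 ± 0.20, adjusted p = 3.72e-05). SLC1A6, known from cerebellar Purkinje cells, had the opposite pattern: it was listed at 0 in all 4 control libraries and was 8 and 11.2 in P10 bESC. The fitted change was 3.39 ± 0.21 against either control (adjusted p = 9.05e-05 for fibroblasts and 4.72e-05 for blastocysts). Later libraries had 9.79 to 17.7 with a median of 15.3. SLC1A1 and SLC1A3 passed the filter through the blastocysts alone, and SLC1A6 through P10 bESC alone. Their adjusted p thus lend no support beyond the values themselves, and the control values of SLC1A6, listed at 0, may be failed estimates. The neural markers SOX1 and DCX were also listed at 0 in blastocysts and were 5.21 and 4.83, and 2.50 and 2.39, at P10, and the part of neural cells in the SLC1A6 and SLC6A15 levels was not tested. Summed over the 5 acidic carriers, the level was 469 and 543 in blastocysts, at most 0.401 in fibroblasts and 8.81 to 21.6 in bESC. Trophectoderm markers were also far higher in blastocysts (2940 and 2100 against 134 to 674), and their part in the SLC1A1 and SLC1A3 levels was not tested.

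The neutral exchangers SLC1A4 and SLC1A5 were higher in P10 bESC than in blastocysts and were not called against fibroblasts, with line A nearer to fibroblasts and line B nearer to blastocysts. SLC1A5, the glutamine exchanger ASCT2, was 46.2 and 22.1 in P10 bESC, 61.7 and 57.2 in fibroblasts and 12.6 and 8.67 in blastocysts. The 3 sample types did not overlap. The change was 1.53 ± 0.36 against blastocysts (adjusted p = 0.0087, and 1.28 with no call without blastocyst pool B) and was not called against fibroblasts (-0.87 ± 0.36, adjusted p = 0.0823). SLC1A4, the alanine, serine and cysteine exchanger ASCT1, was 5.80 and 1.53 in P10 bESC, 3.66 and 4.50 in fibroblasts and 0.0722 and 0.697 in blastocysts. It was higher than in blastocysts by 1.62 ± 0.48 (adjusted p = 0.0228), a call lost after quantile normalization (1.01), without blastocyst pool A (1.29) or without line A at P10 (0.91). In the 8 later libraries SLC1A5 was 36.7 to 58.0 with a median of 50.6 and was the most abundant member by mean (49.1 ± 7.38, SD, n = 8).

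Heavy and light chains were present in different proportions in each sample type. SLC3A2, the heavy chain known as CD98hc or 4F2hc, was 119 and 84.9 in fibroblasts, 37.3 and 18.5 in P10 bESC and 18.4 and 12.5 in blastocysts. Fibroblasts lay above all other libraries, while line B at P10 (18.5) lay next to blastocyst pool A (18.4). The change was -1.89 ± 0.37 against fibroblasts (adjusted p = 0.00593), and 0.76 ± 0.37 with no call against blastocysts (adjusted p = 0.112). SLC7A8, the light chain LAT2 for neutral amino acids, ran the other way. It was 64.2 and 56.1 in blastocysts, 8.98 and 8.11 in P10 bESC and 0.0925 and 0.555 in fibroblasts, with no overlap. It was higher than in fibroblasts by 2.87 ± 0.25 (adjusted p = 0.000248) and lower than in blastocysts by 2.68 on the same scale (SE 0.25, adjusted p = 0.000175).

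The other light chains changed less. SLC7A7, which exports cationic for neutral amino acids, was 12.1 and 8.79 in blastocysts, 3.81 and 5.08 in P10 bESC and 1.54 and 1.09 in fibroblasts. It was called higher than in fibroblasts (1.23 ± 0.27, adjusted p = 0.0093, and 1.06 with no call without line B at P10). Against blastocysts SLC7A7 was called lower in scaled values (-1.07 ± 0.27, adjusted p = 0.0119) and was 0.52 higher, without a call, in the RPKM as deposited. Without blastocyst pool A (-0.86) or without line A at P10 (-0.90) it was not called. SLC7A6, its close relative, was 3.96 to 5.74 in all 14 libraries and was called in neither comparison. SLC7A11, the cystine and glutamate exchanger xCT, was 3.1 and 1.40 in P10 bESC, 1.09 and 3.26 in fibroblasts and 0 and 0.0966 in blastocysts. It was higher than in blastocysts by 1.58 ± 0.40 (adjusted p = 0.0116), a call lost after quantile normalization (1.06), without blastocyst pool A (1.52) or without line A at P10 (1.19). SLC7A5 (LAT1), the main leucine carrier of many dividing cells, was measured in the later libraries only, at 7.16 to 20.4 with a median of 12.9. SLC3A1, the heavy chain of the kidney cystine carrier, was 1.5 to 2.69 in all bESC libraries while its light chain partner SLC7A9 stayed under 1 everywhere. Against blastocysts (1.11 and 0.513) it was higher at P10 by 1.00 ± 0.24 (adjusted p = 0.0102), a call lost after quantile normalization (0.31), without blastocyst pool B (0.76) or without line B at P10 (0.96).

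The level of SLC3A2 relative to the sum of SLC7A6, SLC7A7, SLC7A8, SLC7A10 and SLC7A11 was 17.3 and 8.68 in fibroblasts, 0.229 and 0.18 in blastocysts and 1.77 and 0.904 in P10 bESC of lines A and B. Later libraries lay between 0.875 and 1.76, and between 0.669 and 1.09 with SLC7A5 added to the sum. SLC7A8 supplied 80% and 81.1% of the light chain sum in blastocysts, 39.6% to 64.5% in bESC and 1.35% and 5.67% in fibroblasts, where SLC7A6 was the highest. These are ratios of transcript levels without a test.

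Among the cationic carriers tested, SLC7A3 differed most between P10 bESC and either control. SLC7A3 (CAT3), which imports arginine and lysine, was 47.0 and 17.9 in P10 bESC, 0.138 and 0 in blastocysts and 0.0244 and 0 in fibroblasts. All bESC libraries lay above every control library, and later ones had 31.4 to 59.1 with a median of 50.6. The change was 4.89 ± 0.42 against fibroblasts (adjusted p = 0.000255) and 4.82 ± 0.42 against blastocysts (adjusted p = 0.000148). SLC7A1 (CAT1), the widely expressed arginine carrier, was 21.3 and 5.68 in P10 bESC, 7.16 and 12.1 in fibroblasts and 1.08 and 2.45 in blastocysts. P10 bESC overlapped with fibroblasts and lay above blastocysts (2.19 ± 0.59, adjusted p = 0.0158, with no call without blastocyst pool A, 1.82, or without line A at P10, 1.32). SLC7A4, a relative without established transport activity, was 9.74 and 10.1 in blastocysts and at most 1.05 in every other library (-3.06 ± 0.18 from blastocysts to P10, adjusted p = 4.08e-05). SLC7A2 (CAT2), which is induced in immune and liver cells, was 0.720 and 1.12 at P10 and was called in neither comparison. SLC7A3 passed the filter through P10 bESC alone and SLC7A4 through the blastocysts alone. Their adjusted p thus lend no support beyond the values themselves.

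Sodium-coupled neutral carriers of SLC38A had no member called higher than in fibroblasts and 4 of 8 tested called lower, beside 25.1% and 25.3% of all features. SLC38A2 (SNAT2), the carrier induced when amino acids run short, was 123 and 150 in fibroblasts, 66.5 and 41.4 in P10 bESC and 61.2 and 91.4 in blastocysts. The change against fibroblasts was -1.36 ± 0.30 (adjusted p = 0.00939), with no call without fibroblast culture B (-1.22) or line B at P10 (-1.02). Against blastocysts the values overlapped (-0.50 ± 0.30, adjusted p = 0.177). SLC38A10 was 25.6 and 22.5 in fibroblasts, 10.0 and 13.7 in P10 bESC and 1.72 and 0.824 in blastocysts. It was lower than in fibroblasts (-0.98 ± 0.28, adjusted p = 0.0268), a call lost without fibroblast culture A (-0.88), fibroblast culture B (-1.07) or line A at P10 (-0.77), and higher than in blastocysts (2.51 ± 0.28, adjusted p = 0.000376). SLC38A7, a lysosomal glutamine exporter, was 10.3 and 8.55 in fibroblasts and 3.98 and 3.92 in P10 bESC (-1.07 ± 0.23, adjusted p = 0.00854, and -0.95 with no call without fibroblast culture A). Against blastocysts (5.66 and 4.48) SLC38A7 was not called in scaled values (-0.29 ± 0.23, adjusted p = 0.303), but was called higher in the RPKM as deposited (1.12 ± 0.20, adjusted p = 0.00195) and lower after quantile normalization (-0.68 ± 0.23, adjusted p = 0.0376). SLC38A6, an orphan member, was 10.5 and 12.3 in fibroblasts and 0.917 and 2.07 in P10 bESC (-2.35 ± 0.29, adjusted p = 0.000934). Against blastocysts (3.48 and 2.96) SLC38A6 was called lower in scaled values (-0.80 ± 0.29, adjusted p = 0.0479) but was 0.40 higher, without a call, in the RPKM as deposited. That call was also lost without either blastocyst pool (-0.71 and -0.88), without either fibroblast culture (-0.80) and without line A at P10 (-0.46), and with the letter as a replicate block (-0.80), a pseudocount of 0.1 (-1.16) or no filter (-0.80).

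SLC38A5 and SLC38A1 were near 0 in the embryo and abundant in the stem cells. SLC38A5 (SNAT5), a glutamine carrier of system N, was 26.9 and 7.25 in P10 bESC, 8.01 and 1.78 in fibroblasts and listed at 0 in both blastocyst pools. The fibroblast values overlapped with P10 (1.60 ± 0.71, adjusted p = 0.103), and the call against blastocysts was 3.92 ± 0.71 (adjusted p = 0.00288). SLC38A1 (SNAT1), a glutamine carrier of system A, was 17.5 and 9.49 in P10 bESC, 5.09 and 17.0 in fibroblasts and 0 and 0.305 in blastocysts (3.61 ± 0.54 against blastocysts, adjusted p = 0.00128). SLC38A9 and SLC38A11 were highest in blastocysts. SLC38A9, the lysosomal arginine sensor of mTORC1, was 13.4 and 13.8 in blastocysts and 3.77 to 5.01 in the other 12 libraries. It was lower at P10 by 1.37 in scaled values (SE 0.22, adjusted p = 0.00162) but higher by 0.28, without a call, in the RPKM as deposited. SLC38A11 was 4.65 and 6.24 in blastocysts, listed at 0 in fibroblasts and 0.364 and 0.158 in P10 bESC (-2.35 ± 0.20 against blastocysts, adjusted p = 0.000139). It passed the filter through the blastocysts alone, so this adjusted p lends no support beyond the values. SLC38A4, a system A carrier known from liver and placenta, was 4.59 to 7.80 in the later libraries.

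Proton-coupled and facilitative carriers each had a member on either side. SLC36A1 (PAT1), which exports small amino acids from the lysosome, was 24.2 and 32.8 in blastocysts, 4.81 and 7.03 in fibroblasts and 4.85 and 2.96 in P10 bESC. It was lower than in blastocysts by 2.60 on the log2 scale (SE 0.30, adjusted p = 0.000431) and overlapped with fibroblasts. SLC36A4 (PAT4), a high-affinity proline and tryptophan carrier, was 0.105 and 0 in blastocysts and 1.87 and 4.32 in P10 bESC (1.89 ± 0.36, adjusted p = 0.00352). SLC43A3, related to the leucine facilitators and known to move purine bases, was 10.7 and 13.6 in P10 bESC, 0.982 and 3.90 in fibroblasts and 2.84 and 2.95 in blastocysts. The P10 values lay above all 4 controls, with changes of 2.07 ± 0.43 against fibroblasts (adjusted p = 0.00744) and 1.75 ± 0.43 against blastocysts (adjusted p = 0.0105, and 1.59 with no call without line B at P10). SLC43A2 (LAT4), a facilitator for large neutral amino acids, was 6.16 and 6.31 in blastocysts and 0.781 and 1.51 in P10 bESC. That call (-1.77 ± 0.27, adjusted p = 0.00134) was lost in the RPKM as deposited (-0.38).

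Of the 19 SLC6A genes, 8 could be tested in the first 6 libraries. SLC6A6, the taurine carrier, was 12.0 and 13.8 in P10 bESC, 1.45 and 1.54 in fibroblasts and listed at 0 in both blastocyst pools. Its values were close within each group, and the changes were 2.47 ± 0.20 against fibroblasts (adjusted p = 0.000216) and 3.79 ± 0.20 against blastocysts (adjusted p = 3.31e-05). SLC6A15, a carrier of branched-chain amino acids and proline known from neurons, was 2.54 and 6.31 in P10 bESC, listed at 0 in fibroblasts and 0.0482 and 0 in blastocysts. It was called higher against both (2.35 ± 0.33, adjusted p = 0.00154, and 2.31 ± 0.33, adjusted p = 0.00101). SLC6A20, a proline carrier, was 15.9 and 12.7 in blastocysts and at most 0.298 in every other library (-3.84 ± 0.21 at P10, adjusted p = 3.43e-05). SLC6A17, a synaptic vesicle carrier of neutral amino acids, was 13.1 and 28.1 in fibroblasts, 0.0480 and 0.928 in P10 bESC and listed at 0 in blastocysts (-3.83 ± 0.42 against fibroblasts, adjusted p = 0.00061). SLC6A15, SLC6A20 and SLC6A17 passed the filter only through P10 bESC, blastocysts and fibroblasts, respectively. Their adjusted p thus lend no support beyond the values themselves.

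Further SLC6A calls concerned carriers of creatine, GABA and noradrenaline. SLC6A8, which imports creatine, was 84.6 and 58.1 in blastocysts, 11.1 and 28.9 in P10 bESC and 5.87 and 4.46 in fibroblasts, without overlap. The call against fibroblasts (1.64 ± 0.43, adjusted p = 0.0195) was lost without fibroblast culture A (1.80), fibroblast culture B (1.47) or line B at P10 (0.98). The call against blastocysts (-1.90 ± 0.43, adjusted p = 0.00791) was lost in the RPKM as deposited (-0.08). The GABA carrier SLC6A11 was low in P10 bESC (1.18 and 1.07) and listed at 0 in fibroblasts, and was called higher in the stem cells by 1.09 ± 0.19 (adjusted p = 0.00373). SLC6A2, the noradrenaline carrier, was 1.08 and 1.42 in fibroblasts and listed at 0 at P10 (-1.16 ± 0.15, adjusted p = 0.00105). SLC6A11 passed the filter through P10 bESC alone and SLC6A2 through the fibroblasts alone. Their adjusted p thus lend no support beyond the values themselves.

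The P10 libraries of lines A and B differed in a group of these carriers. Line A exceeded line B for SLC1A4 (5.80 against 1.53), SLC7A1 (21.3 against 5.68), SLC38A5 (26.9 against 7.25) and SLC7A3 (47.0 against 17.9). Line B exceeded line A for SLC6A8 (28.9 against 11.1), SLC6A15 (6.31 against 2.54) and SLC36A4 (4.32 against 1.87). In log2(scaled RPKM + 1), 5 of the 28 members with at least 1 in either library were over 2-fold higher in line A (17.9%, against 1.09% of 11142 features) and 2 were over 2-fold lower (7.14%, against 4.55%). Each line has 1 library at P10, so these differences have no replicate check.

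From P12 or P13 onward, the carriers showed no called trend with passage and no called difference between the lines. Of 33 members tested in the 8 later libraries by limma, none was called for passage, line or their product, and 2, 2 and 0 had an unadjusted p below 0.05. Among all 12374 features, 0%, 0.00808% (1 feature, higher in line B) and 0% were called, and 555, 805 and 74 had an unadjusted p below 0.05. The smallest adjusted p among members was 0.968 for passage, and among members of at least 5 scaled RPKM the values were 0.15 ± 0.05 per 10 passages for SLC38A4 and 0.07 ± 0.03 for SLC7A8. For line B minus line A they were 0.16 ± 0.06 for SLC38A10, 0.39 for SLC38A1 and 0.37 for SLC43A3 (adjusted p = 0.716). For the product of line and passage they were -0.22 for SLC7A1, -0.32 for SLC7A5 and -0.25 for SLC1A4 (adjusted p = 1).

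The P10 libraries were set against the 8 later ones in a fit with line and passage on the 10406 features shared by the file sets. Each change in that fit is the gap between P10 and the later passage trend carried back to P10. It is not a plain difference between the values given beside it. SLC7A8 (8.98 and 8.11 at P10, 12.8 to 19.2 later) was called lower at P10 by 0.67 on the log2 scale (SE 0.12, adjusted p = 0.00864). SLC43A3 (10.7 and 13.6 at P10, 18.6 to 42.9 later) was called lower (-1.13 ± 0.23, adjusted p = 0.014), as was SLC7A2 (0.720 and 1.12 at P10, 1.71 to 6.86 later, -1.42 ± 0.28, adjusted p = 0.0115). SLC7A7 (3.81 and 5.08 at P10, 1.88 to 2.76 later) was called higher at P10 (0.67 ± 0.16, adjusted p = 0.0247). These 4 genes did not overlap between P10 and later libraries, but neither did several members without a call. Among those were SLC6A6 (12.0 and 13.8 at P10, 15.2 to 20.4 later) and SLC3A1 (2.47 and 2.69 at P10, 1.5 to 2.00 later). The share of all features without overlap was not counted. SLC38A10 was the remaining lower call (-0.34 ± 0.10, adjusted p = 0.0496). In all, 1 of 31 members was higher and 4 lower, beside 5.14% and 9.13% of all features, and the medians were -0.28 and -0.04.

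Passage 10 and the set of files cannot be told apart in that fit, because all P10 libraries are in one set and all later ones in the other. ODC1, the rate-limiting enzyme of polyamine synthesis, was 193 and 227 at P10 and 0.0679 to 0.643 later, while GPX4 was 0.133 and 0.0546 at P10 and 15.9 to 22.4 later and at most 0.698 in the controls. Without line B at P10, SLC7A2 (-1.29), SLC7A8 (-0.54), SLC7A7 (0.42) and SLC43A3 (-1.10) were not called. SLC43A3 was also lost without line B at P12 (-1.03) or line A at P10 (-1.16), SLC7A8 without line B at P12 (-0.60), and SLC7A7 without line B at P12 (0.67), P24 (0.62) or P46 (0.65). The SLC38A10 call was lost without any single later library (-0.36 to -0.32) and without line A at P10 (-0.20).

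The later libraries also differed among themselves in a way that several carriers shared. Line A at P13, line A at P35 and line B at P35 were the 3 lowest of the 8 for SLC1A4, SLC1A5, SLC1A6, SLC3A2, SLC7A1, SLC7A3, SLC7A5, SLC38A1, SLC38A5 and SLC43A3. SLC3A2 was 20.4, 24.3 and 30.5 in these 3 libraries and 40 to 47.8 in the other 5. SLC7A5 was 7.16, 9.57 and 8.07 against 11.7 to 20.4, and SLC7A3 was 31.4, 39.8 and 33.1 against 50.0 to 59.1. The 10 genes are 32.3% of the 31 members with a mean of at least 1, and the same 3 libraries were lowest for 15.1% of 11974 features. They were the 3 highest for 1 member, SLC43A2 (3.23%, against 12% of features). This order was noticed in the values and carries no test. The relative depth was 1.00, 0.710 and 0.999 in these 3 libraries and 0.902 to 1.03 in the other 5, and its part was not tested. Members with other orders ranged from steady to more variable than these 10. SLC38A2 was 43.4 to 55.0, SLC7A6 4.48 to 5.74 and SLC38A9 3.77 to 4.55, whereas SLC38A3 (0.406 to 1.75), SLC7A2 (1.71 to 6.86) and SLC1A1 (0.863 to 3.27) had the widest relative ranges of the members with a mean of at least 1.

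Part of the amino acid response list took its lowest values in the same libraries. Of its 17 genes with a mean of at least 1, 8 had these 3 libraries as the lowest, none had them as the highest, and 9 had another order, such as ATF5, VLDLR, NUPR1 and DDIT3. Of 13 serine, glycine and one-carbon genes, 9 had them as the lowest, and of 11 glutamine, proline and aspartate genes 4. Methionine, threonine and polyamine genes had 4 of 8, and sensing and mTORC1 genes 4 of 20. Glutathione genes had 2 of 9, carrier partners and regulators 2 of 10, and branched-chain degradation 1 of 8. Amino acid carriers of other families had 0 of 10. The share over all features was 15.1%, and these counts carry no test. ATF4 was 126, 138 and 192 in line A at P13, line A at P35 and line B at P35, and 236 to 299 in the other 5 later libraries. ASNS, asparagine synthetase, was 30.5, 37.7 and 28.3 against 55.0 to 71.0. CHAC1, which degrades glutathione, was 1.02, 1.20 and 4.31 against 7.57 to 13.3, and the pseudokinase TRIB3 was 0.367, 0.419 and 2.10 against 2.41 to 5.57. At P10, line B was low beside line A for the same genes: ATF4 was 87.4 against 292, ASNS 27.6 against 72.8, CHAC1 1.08 against 21.6 and TRIB3 0.361 against 5.25. Phosphoglycerate dehydrogenase PHGDH, the entry enzyme of serine synthesis, was 52.2, 58.2 and 41.6 in the 3 libraries against 73.6 to 93.4. KRT8 was lower in line A at P13 and P35 (114 and 159) than in the other 6 (269 to 431). The neural gene SOX1 was higher, at 5.10 and 2.85 there, 3.87 in line B at P35 and 0.964 to 1.78 in the rest. Of 5 neural genes with a mean of at least 1, only SOX1 and DCX had these 3 libraries as the highest. The neural markers summed to 148 and 156 in line A at P13 and P35, 156 in line B at P35 and 133 to 157 in the rest. The part of cell make-up in these carrier levels was not tested.

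**Figure D4:**
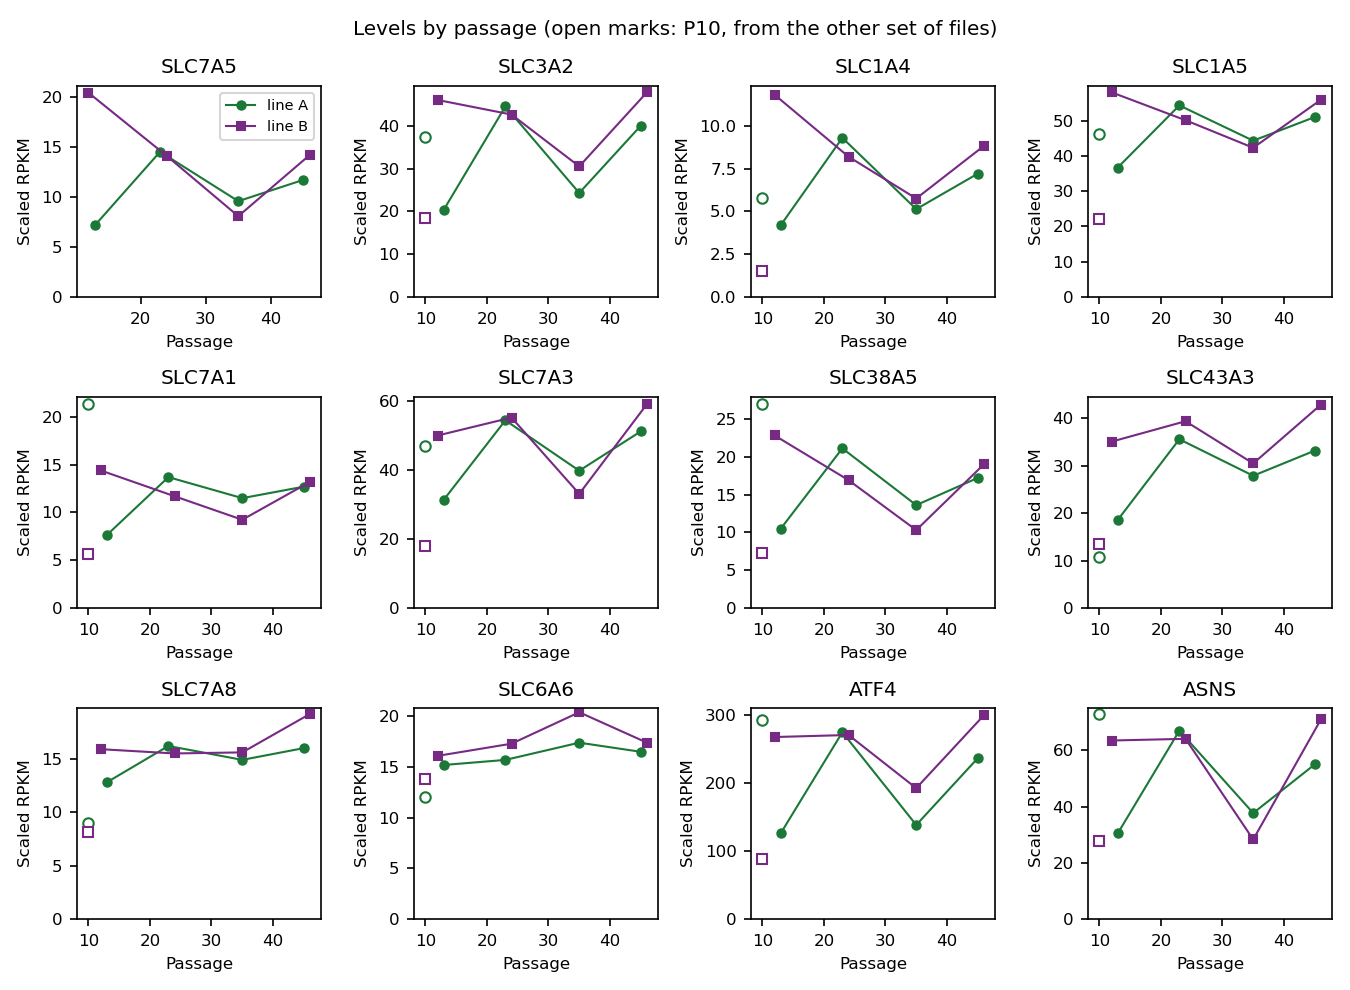
Scaled RPKM (from 0) against passage for 10 members and for ATF4 and ASNS in line A (green circles) and line B (purple squares), 1 library a point, with P10 as open marks because it comes from the other set of files. SLC3A2, SLC1A5, SLC7A3, ATF4 and ASNS dip in line A at P13 and in both lines at P35. SLC7A8 is also lowest of the later libraries in line A at P13 and P35 (12.8 and 14.9), but not in line B at P35 (15.6). SLC6A6 is lowest of them in line A at P13 (15.2) and peaks at P35 in both lines (17.4 and 20.4).

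Genes that make or use amino acids were read from lists beside the carriers, and their counts stand beside 25.1% higher and 25.3% lower among all features against fibroblasts, and 34.3% and 31% against blastocysts. The shares of several lists lie near these values. Of 16 tested ATF4 pathway genes, none was called higher and 10 were lower in P10 bESC than in fibroblasts (median -1.58), among them the stress gene NUPR1 (-6.34 ± 0.38, adjusted p = 8.44e-05) and the tryptophan tRNA ligase WARS (-4.22 ± 0.28, adjusted p = 0.000104). Against blastocysts, 6 were higher and 3 lower (median 0.57), with the lipoprotein receptor VLDLR higher (2.68 ± 0.23, adjusted p = 0.000144) and the stress factor DDIT3 lower (-2.18 ± 0.30, adjusted p = 0.000923). Serine, glycine and one-carbon genes had 2 higher and 3 lower of 8 against fibroblasts and 4 higher and 1 lower against blastocysts. PHGDH was 0.343 and 0.920 in blastocysts, 90.6 and 40.1 in P10 bESC and 194 and 173 in fibroblasts, and was called higher than in blastocysts (5.26 ± 0.39, adjusted p = 7.82e-05).

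Glutamine, proline and aspartate genes had 3 higher and 3 lower of 12 against fibroblasts, and 7 higher and 1 lower against blastocysts (median 0.92). PYCR1, the last enzyme of proline synthesis, was 0.0933 and 0.181 in blastocysts, 71.3 and 28.7 in P10 bESC and 112 and 109 in fibroblasts (5.35 ± 0.39 against blastocysts, adjusted p = 7.84e-05). Branched-chain degradation had 7 of 8 genes higher and 1 lower than in blastocysts (median 1.05), and 2 higher and 2 lower than in fibroblasts, where BCAT1, the cytosolic branched-chain aminotransferase, was higher (2.07 ± 0.26, adjusted p = 0.000971). Methionine, threonine and polyamine genes had 5 higher and 2 lower of 10 against fibroblasts, and 2 higher and 6 lower against blastocysts. Spermidine synthase SRM was 278 and 236 in blastocysts and 14.9 and 10.5 in P10 bESC (-4.25 ± 0.22, adjusted p = 3.1e-05). The 8 glutathione genes had 1 higher and 1 lower against fibroblasts, and 3 higher and 2 lower against blastocysts.

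Of 22 tested genes of amino acid sensing and mTORC1, 3 were higher and 8 lower against fibroblasts, and 7 higher and 8 lower against blastocysts. RRAGD, a Rag GTPase that recruits mTORC1 to the lysosome, was 41.6 and 35.7 in P10 bESC, 4.98 and 7.32 in fibroblasts and 0.448 and 0.263 in blastocysts, and was higher against both (2.49 ± 0.25, adjusted p = 0.000462, and 4.87 ± 0.25, adjusted p = 3.14e-05). LAMTOR1, a lysosomal anchor of the Rag complex, was lower than in fibroblasts (-1.88 ± 0.20, adjusted p = 0.000588). Amino acid carriers of other families had 2 higher and 2 lower of 13 against fibroblasts and 5 higher and 3 lower against blastocysts. The list of carrier partners and regulators had 2 higher and 6 lower of 11 against fibroblasts, and 2 higher and 3 lower against blastocysts. Among them MYCN was 32.0 and 16.2 in P10 bESC and listed at 0 in fibroblasts, MYC was 0.584 and 0.802 against 23.7 and 19.8, and CD44, which holds xCT at the membrane, was 0.611 and 4.03 against 146 and 114.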

How the data were processed

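The authors' deposited files give RPKM per feature, 1 file per library, made from TruSeq libraries per the labels' protocols. The submitters' processing notes name UMD3.1 and edgeR, without saying for which step, and the aligner was not given in the sources used here. No count of reads was recovered for tests, so precision rests on the spread between libraries. From the 6-library set, 26 unreadable names and 25 names turned into dates were left out. In 5 later files, up to 26 feature names a file had turned into date numbers and were restored. All 57 members matched RefSeq symbols; no coordinates are given because the table's build differs.

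RPKM were scaled by median of ratios, log2 transformed with a pseudocount of 1 and fitted with limma 3.58.1 (trend on, two-sided, R 4.3.3), with a filter of 1 scaled RPKM in 2 libraries and Benjamini-Hochberg adjustment over all features. The fits were also run on simulated data, whose outcome is not given here, so how often they miss a true change is not stated. Fits covered the 6 libraries by group, the 8 later ones by line and passage (with their product in another fit), and all 10 bESC libraries. Nothing in the labels says that letters pair blastocysts, fibroblasts and lines, so no block was used. Alternatives were RPKM as deposited, quantile normalization, other pseudocounts and filters, a replicate block and leaving out libraries. Groups come from the labels.

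Members and gene lists were chosen with earlier results of these data known. Members named with values were those called with at least 5 scaled RPKM in the higher group and no overlap (up to 8 a direction), the 3 highest of each group and 11 known from embryos and stem cells. From each list up to 3 genes with the smallest adjusted p were eligible. Other members and genes are named to account for the families, or were chosen after their values were seen, as were ATF4, TRIB3, CHAC1, KRT8, SOX1, ODC1 and GPX4. Antisense or overlapping genes cannot be separated here, since strand handling is not given. The counts cover all members, but the values of 1 of them are not reported here, in the text or the figures.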

Additional observations from a re-analysis of the deposited data

Results flagged for a closer look

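Among the 8 later bESC libraries, 2 members had a library far from the rest, as judged by its gap to the next value over the whole range. SLC1A3, the glial glutamate carrier, was 0.538 in line A at P13 and 0.167 to 0.296 in the other 7. SLC6A6, the taurine carrier, was 20.4 in line B at P35 and 15.2 to 17.4 in the other 7. Chance alone flags about 1 group in 20, and the members named by the rule for named genes were all looked at in this way.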

How the results depend on the processing

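Of 1005 alternative values for 77 called member results, 908 kept direction and call, 93 kept direction without a call and 4 reversed. The 4 reversed in the RPKM as deposited: from blastocysts to P10 bESC, SLC38A6 changed by 0.40, SLC38A9 by 0.28 and SLC7A7 by 0.52, and from fibroblasts to blastocysts SLC43A2 changed by -0.10; that scaling also shifts the median of all features. With RPKM as deposited, 7 members were lower at P10 than in blastocysts and 8 were higher in blastocysts than in fibroblasts. A filter of 5 scaled RPKM, which tests fewer genes, left 9 members higher than in blastocysts and 0 higher at P10 than later. With the 8 later libraries in place of P10, chosen after seeing the data, 17 members were higher than in fibroblasts and 22 higher than in blastocysts, beside 40.4% and 47.6% of all features; the cause was not tested. Between P10 and later libraries, 3 were higher and 8 lower without a passage term (16.2% and 23.5% of features). That fit measures something else, since it sets P10 against the mean of the later libraries and not against their trend carried back. After leaving out P35 of both lines and line A at P13, also chosen after seeing the data, 2 were higher and 7 lower (12.8% and 18.2%). The cause of this last shift was not tested.

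Leaving out 1 library in turn gave 5 to 10 members higher and 3 to 7 lower than in fibroblasts, 9 to 14 higher and 5 to 12 lower than in blastocysts, 7 to 12 higher and 10 to 16 lower in blastocysts than in fibroblasts, and 0 to 1 higher and 1 to 4 lower at P10 than later. A group left with 1 library is assumed to vary like the others. Letters A and B are shared labels only. With the letter as a replicate block, 11 members were higher and 8 lower than in fibroblasts, 15 and 11 against blastocysts, and 13 and 15 between blastocysts and fibroblasts. Without the line as a replicate block, 1 was higher and 3 lower at P10 than later. No member was called for passage, line or their product in any alternative run. The number of reads behind the RPKM is unknown, so no counting error can be given for low values.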
